A study of Mus musculus with 12 samples.

Results

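The receptors through which cortical neurons read 4 families of neuropeptide were examined in bulk RNA sequencing of brain cortex. They are the somatostatin receptor genes Sstr1, Sstr2, Sstr3 and Sstr4, the neuropeptide Y receptor genes Npy1r, Npy2r and Npy5r, the cholecystokinin receptor gene Cckbr and the tachykinin receptor genes Tacr1 and Tacr3. These 10 genes were taken by symbol from a table of 33024 gene symbols, and all 10 had enough counts to be tested. The mice were of the C57BL/6 strain. The ethanol-administered group (EtOH, 5 mice) could choose nightly, for 12 h in the dark, between water and 20% (v/v) ethanol from the age of 30 days over 35 sessions, and the control group (Vehicle, 7 mice) had water in both bottles. Ethanol was then withdrawn for 14 days, behavioural testing in mazes, a forced swim and on a rotarod followed, and tissue was harvested after these tests. The comparison therefore asks which receptor transcripts differed after drinking had ended, in mice that had also been through the tests.

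All of these receptors are G-protein-coupled receptors on the cell surface. The somatostatin receptors and the neuropeptide Y receptors couple mainly to inhibitory G proteins, which lower cyclic AMP and open inwardly rectifying potassium channels. The cholecystokinin B receptor and the tachykinin receptors couple mainly to Gq, which activates phospholipase C and raises intracellular calcium. In the cortex most of the peptides themselves are released by GABAergic interneurons, and cholecystokinin also by pyramidal neurons.

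Of the 10 receptor genes, 2 were higher and 1 was lower in the ethanol-administered mice. Npy2r, a largely presynaptic receptor that holds back transmitter release, rose 3.83-fold, and Sstr4, a somatostatin receptor known from hippocampal and cortical pyramidal neurons, rose 1.63-fold, a call lost with the share of counts on long genes as a covariate or with a log2 minimum of 1. Tacr1, the substance P receptor (also called NK1), fell to a level 4.72-fold lower. A gene was called when edgeR's quasi-likelihood test gave an adjusted p under 0.05 over all 16059 genes tested and the log2 fold change exceeded 0.5 in size, the thresholds of the study. By this rule 8.29% of all genes tested were called, 4.2% higher and 4.09% lower, so 3 of 10 stands beside a background of 8.29%. The median log2 fold change was 0.016 over the 10 receptors and 7.21e-05 over all genes, and the median size of the change was 0.24 against 0.15. In bulk tissue, fewer cells of a type and less RNA per cell cannot be told apart.

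The promoter windows of the 3 genes that were called are shown first, together with that of Sstr2 for contrast, as a receptor of the same family as Sstr4 that was not called. Each window runs from 250 bases before to 50 bases after the RefSeq transcription start, as RefSeq gives it for GRCm38.p6. Each of the 300-base sequences was found at exactly 1 place in GRCm39, the build of the counts, and the positions given are those in GRCm39. Capitals mark the core of the cyclic AMP response element (TGACG, or CGTCA when read on the other strand) and the GC box (GGGCGG or CCGCCC).
Npy2r, chr3:82455343-82455642, minus strand: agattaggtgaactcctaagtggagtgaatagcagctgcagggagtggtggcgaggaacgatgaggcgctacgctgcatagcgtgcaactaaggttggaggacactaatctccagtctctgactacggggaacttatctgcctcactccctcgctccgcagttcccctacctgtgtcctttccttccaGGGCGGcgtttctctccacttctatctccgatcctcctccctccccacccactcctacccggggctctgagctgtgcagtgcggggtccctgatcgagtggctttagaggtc
Sstr4, chr2:148237047-148237346, plus strand: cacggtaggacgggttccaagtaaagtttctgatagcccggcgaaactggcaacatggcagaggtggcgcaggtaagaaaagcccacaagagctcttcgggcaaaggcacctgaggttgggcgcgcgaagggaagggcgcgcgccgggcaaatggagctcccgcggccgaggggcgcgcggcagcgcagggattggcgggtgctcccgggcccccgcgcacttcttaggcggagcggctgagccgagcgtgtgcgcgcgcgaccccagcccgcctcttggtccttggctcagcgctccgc
Tacr1, chr6:82379206-82379505, plus strand: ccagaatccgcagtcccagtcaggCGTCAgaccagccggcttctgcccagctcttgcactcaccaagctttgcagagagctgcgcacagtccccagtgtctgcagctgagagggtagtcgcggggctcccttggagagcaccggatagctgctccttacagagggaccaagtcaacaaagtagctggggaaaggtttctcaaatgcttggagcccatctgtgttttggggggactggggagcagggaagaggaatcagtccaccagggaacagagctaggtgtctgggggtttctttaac
Sstr2, chr11:113509903-113510202, plus strand: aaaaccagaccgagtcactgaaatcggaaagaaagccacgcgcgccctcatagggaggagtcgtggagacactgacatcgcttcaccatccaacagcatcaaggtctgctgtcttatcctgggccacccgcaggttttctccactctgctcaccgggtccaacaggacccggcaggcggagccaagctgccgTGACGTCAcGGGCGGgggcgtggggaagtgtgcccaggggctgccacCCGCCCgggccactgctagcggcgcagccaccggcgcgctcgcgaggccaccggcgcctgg

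RefSeq windows were at hand for 9 of the 10 receptor genes (Sstr3 has 2 of them). The TGACG core occurred in windows of 4 of these genes, namely Sstr2, Sstr3, Tacr1 and Tacr3, and in 20.9% of the 32544 mouse promoter windows of the same length. The full palindrome TGACGTCA, which contains the core on both strands, was found in Sstr2 alone among them, 58 bases before the start, and in 1.8% of all windows. The GC box was found in Sstr2 and Npy2r, and in 35.9% of all windows. Sstr4 held neither motif but was the richest in CpG, with 35 CpG dinucleotides against a median of 7 over all windows. These matches are descriptions of letters only.

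Markers of brain regions differed between the groups, given here in library-size-normalised read counts (CPM, scaled with TMM factors). The tissue was labelled as cortex, and all 8 cortical excitatory neuron markers were present, summing to between 2437 and 2881 CPM in the control and between 2298 and 2846 CPM in the ethanol-administered mice. Of these, 1 was called higher (Fezf2, log2 fold change 0.60, edgeR adjusted p = 1e-04) and 0 lower, while Bcl11b (-0.45, adjusted p = 0.00177) and Tbr1 (-0.40, adjusted p = 0.00222) were lower, and Cux2 (0.31, adjusted p = 0.0181) and Neurod6 (0.26, adjusted p = 0.0286) higher, without reaching the minimum fold change. Of 8 cortical interneuron markers, 1 was called higher (Reln, log2 fold change 0.64) and 2 lower (Gad2, -0.63, and Lamp5, -0.51). Gad1 (-0.31, edgeR adjusted p = 0.00397) was lower and Adarb2 (0.43, adjusted p = 0.00675) higher, without reaching the minimum fold change. Their summed levels were 931 to 1117 and 800 to 881 CPM, so the groups did not overlap. The 15 striatal markers, such as the dopamine receptor gene Drd2, were all called lower, and their summed level went from between 1559 and 3310 CPM in the control mice to between 435 and 522 CPM in the ethanol-administered mice. All 7 cholinergic neuron markers tested, of 8 listed, were called lower, from between 12.5 and 41.7 to between 1.73 and 2.34 CPM, with Lhx8 at 0 counts in every ethanol-administered mouse. Of 10 hippocampal markers, 9 were called higher, from between 108 and 149 to between 240 and 333 CPM. The level of choroid plexus markers (4 of 6 tested called higher) overlapped between groups, at 8.08 to 22.8 and 12.2 to 996 CPM. Of 6 thalamic markers, Slc17a6 was called higher and Tnnt1 lower, and the summed level went from between 48.1 and 54.8 to between 60.3 and 85.3 CPM. Of 6 astrocyte markers, Gfap was called higher, with sums of 824 to 924 and 995 to 1106 CPM, so the groups did not overlap. Of 6 oligodendrocyte markers, Mbp and Mobp were called lower, with overlapping sums of 4285 to 5703 and 2872 to 5139 CPM. Among 6 microglia markers 0 were called, but their sums did not overlap (250.9 to 275.3 and 224 to 247 CPM). Endothelial (6 tested), blood (5 tested) and hypothalamic peptide markers (3 tested of 7 listed) had 0 calls by edgeR and overlapping sums. No hippocampal, striatal or choroid plexus marker was at 0 in all mice.

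Npy2r lies on chromosome 3 of GRCm39 from 82444312 to 82455409, on the minus strand, with 2 merged exons. The control mice ranged from 2.46 to 5.45 CPM with a median of 4.17. The ethanol-administered mice had 17.0, 13.5, 23.3, 16.9 and 7.42 CPM in mice 1 to 5. All 5 lay above every control mouse, and mouse 5 lay well below its group. The means were 15.6 ± 5.81 CPM (n = 5, SD) and 4.08 ± 1.04 CPM (n = 7, SD), and the fitted difference was 1.94 on the log2 scale (standard error, SE, 0.22, adjusted p = 6.92e-06 by edgeR). By p-value this was the 208th of the 16059 genes. With any 1 mouse left out the log2 fold change stayed between 1.75 and 2.11.

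Npy1r and Npy5r, the other neuropeptide Y receptor genes, sit 8145 bases apart on chromosome 8 and are read in opposite directions, Npy1r from 67149364 to 67159731 on the plus strand and Npy5r from 67132549 to 67141218 on the minus strand. Npy1r is the main postsynaptic receptor for neuropeptide Y in the cortex. It ranged from 29.5 to 33.1 CPM (median 31.5) in the control mice and had 33.4, 39.3, 35.2, 38.0 and 38.0 CPM in the ethanol-administered mice, so the groups did not overlap, although mouse 1 stood only just above the highest control. The difference was small beside that of Npy2r. Its log2 fold change of 0.23 (SE 0.05, adjusted p = 0.00514 by edgeR) passed the p threshold, as did 23.7% of all genes tested, but not the minimum fold change. With the long-gene share as a covariate it no longer passed (0.22, edgeR adjusted p = 0.159). Npy5r, which with Npy1r mediates the feeding effect of the peptide, had 4.89 ± 0.716 CPM (n = 5, SD) against 6.02 ± 0.844 CPM (n = 7, SD). Its log2 fold change of -0.30 did not pass (95% interval -0.55 to -0.04, edgeR adjusted p = 0.0852, or 0.0387 without ethanol-administered mouse 2), and the groups overlapped.

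Tacr1 lies on chromosome 6 from 82379278 to 82537085 on the plus strand, with 7 merged exons. The control mice ranged from 3.50 to 11.0 CPM with a median of 8.14, and the ethanol-administered mice had 1.30, 1.49, 2.21, 2.67 and 1.09 CPM. Every ethanol-administered mouse was below every control mouse, and the lowest control, mouse 7, was the nearest to them. The means were 1.75 ± 0.662 CPM (n = 5, SD) and 8.25 ± 2.70 CPM (n = 7, SD), and the fitted difference was -2.24 on the log2 scale (SE 0.27, adjusted p = 1.43e-05 by edgeR). In counts this was between 36 and 88 reads per ethanol-administered mouse, well above the floor of 3 counts, which corresponds to at most 0.0944 CPM. Without any 1 mouse the log2 fold change lay between -2.44 and -2.12.

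Tacr3, the neurokinin B receptor (NK3), lies on chromosome 3 from 134534755 to 134640340. It had 2.23 ± 0.477 CPM (n = 7, SD) in the control and 2.66 ± 0.624 CPM (n = 5, SD) in the ethanol-administered mice. The groups overlapped, and the log2 fold change was 0.25 (95% interval -0.13 to 0.63, edgeR adjusted p = 0.338). The interval reaches past the minimum fold change of 0.5, so these data separate it neither from no change nor from a rise of that size.

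Sstr4 lies on chromosome 2 from 148236836 to 148243025 on the plus strand. The control mice ranged from 7.51 to 14.1 CPM (median 11.7), and the ethanol-administered mice had 19.0, 14.7, 15.8, 19.1 and 20.6 CPM. Here too the groups did not overlap, but the gap between the highest control mouse and the lowest ethanol-administered mouse was narrow. The means were 17.9 ± 2.48 CPM (n = 5, SD) and 10.9 ± 2.32 CPM (n = 7, SD), and the fitted difference was 0.71 on the log2 scale (SE 0.13, adjusted p = 0.00104 by edgeR). Leaving out any 1 mouse kept it between 0.63 and 0.77, but with the share of counts on long genes as a covariate, described further on, it was 0.30 and the call was lost (adjusted p = 0.380 by edgeR).

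The other 3 somatostatin receptors were not called. Sstr1, on chromosome 12 from 58258494 to 58262824, had 16.1 ± 2.35 CPM (n = 5, SD) in the ethanol-administered and 14.6 ± 2.12 CPM (n = 7, SD) in the control mice (log2 fold change 0.14, 95% interval -0.08 to 0.37, edgeR adjusted p = 0.355). Sstr2, the main target of the somatostatin analogue octreotide, lies on chromosome 11 from 113510145 to 113516862. It had 22.5 ± 4.37 (n = 5, SD) against 24.6 ± 2.31 CPM (n = 7, SD), with ethanol-administered mouse 2 lowest at 15.6 CPM (log2 fold change -0.13, interval -0.35 to 0.10, edgeR adjusted p = 0.418). Sstr3, a receptor of the neuronal primary cilium, lies on chromosome 15 from 78421208 to 78428886 and had 27.4 ± 3.30 (n = 5, SD) against 29.7 ± 2.18 CPM (n = 7, SD). Its log2 fold change was -0.11 (interval -0.27 to 0.05, edgeR adjusted p = 0.298). In all 3 the groups overlapped, and the intervals stayed within 0.5 in either direction.

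Cckbr, the brain-type cholecystokinin receptor, lies on chromosome 7 from 105074688 to 105120105. It had 74.9 ± 9.39 CPM (n = 5, SD) in the ethanol-administered and 87.0 ± 7.76 CPM (n = 7, SD) in the control mice, and ethanol-administered mouse 3 was lowest at 59.5 CPM. The log2 fold change was -0.22 (95% interval -0.39 to -0.05, edgeR adjusted p = 0.0592), which did not pass. The p threshold was passed with DESeq2 (adjusted p = 0.0435), upper quartile factors in edgeR (0.0499) or without control mouse 5, control mouse 2 or ethanol-administered mouse 5 (0.0284, 0.041 and 0.0355), but the change stayed under the minimum in each. Over the 10 receptors, 3 were above and 1 was below every control mouse in all 5 ethanol-administered mice, where 4.84% of all genes tested were separated upwards, 4.96% downwards and 9.81% in either direction. Exons of no other annotated gene overlap those of the 10 receptors.

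**Figure D1:**
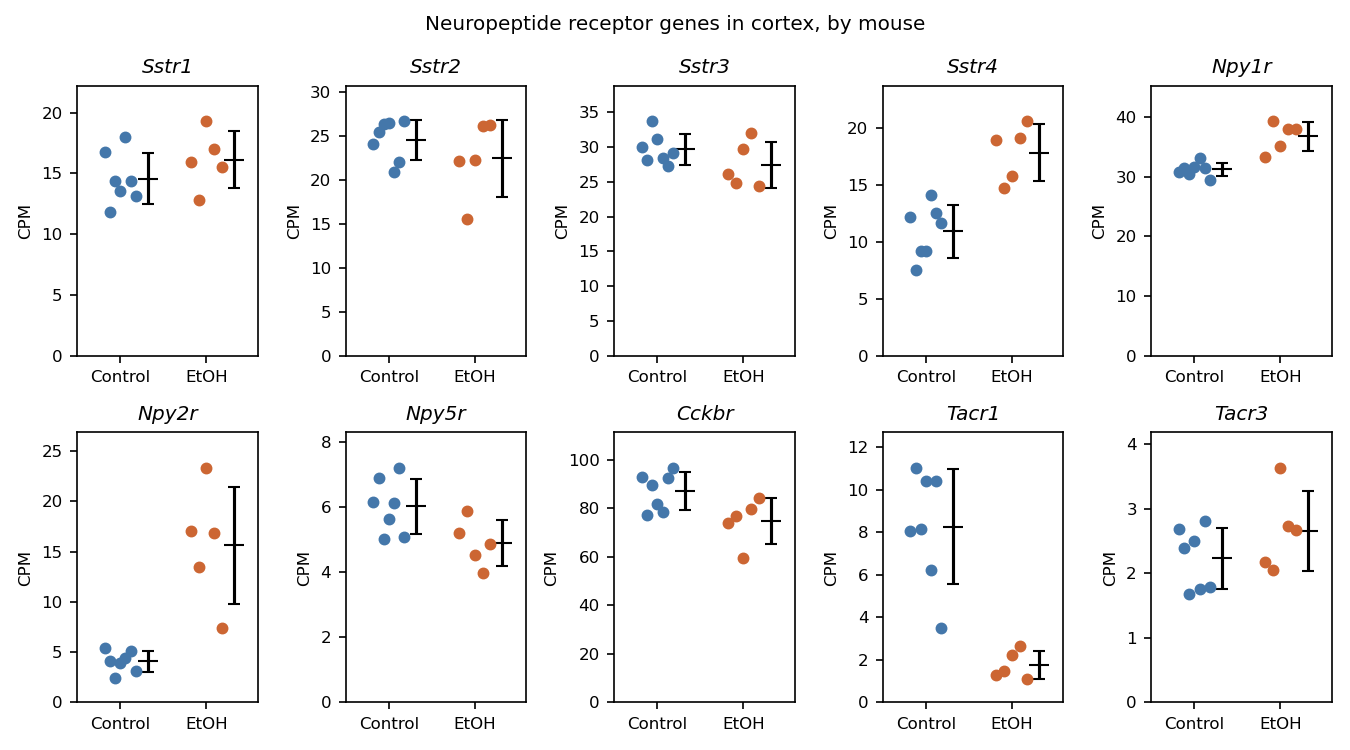
Each panel plots 1 receptor gene, with TMM-scaled CPM on the vertical axis from 0 and 1 point per mouse, 7 Control and 5 EtOH, in order of replicate number. Bars show the mean ± SD. Npy2r, Sstr4 and Npy1r lie above all control mice and Tacr1 below them, and the EtOH mice range from 7.42 to 23.3 CPM for Npy2r.

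Levels of different genes were compared only per length, as CPM per kilobase of merged exons. In the control mice Cckbr had the highest level by this measure, at 24.0 CPM per kilobase, followed by Sstr2 at 11.3, and neither overlapped its neighbour in the order. Sstr3 (4.54), Sstr1 (3.67) and Npy1r (3.67) came next with overlapping ranges. Below them Sstr4 (1.81), Npy5r (1.73), Tacr1 (1.26), Npy2r (0.853) and Tacr3 (0.591) also overlapped each with the next. In the ethanol-administered mice Cckbr (20.6 CPM per kilobase) and Sstr2 (10.4) kept the first places. Npy2r (3.27) overlapped Sstr1 (4.06) and Sstr4 (2.95) there, and Tacr1 was last at 0.268, below the range of Tacr3 (0.703).

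In the 3 families with more than 1 receptor here, each receptor is also given as a share of the summed level per kilobase in each mouse. Tacr1 made up 67.0% ± 7.12 (n = 7, SD) of the 2 tachykinin receptors in the control mice, with a range from 53.0% to 73.8%. In the ethanol-administered mice it was 27.3% ± 6.21 (n = 5, SD), ranging from 19.1% to 36.1%, and Tacr3 made up the rest. Npy2r held 13.5% ± 2.59 (n = 7, SD) of the 3 neuropeptide Y receptors in the control mice and 35.5% ± 9.996 (n = 5, SD) in the ethanol-administered mice, without overlap (highest control 17.4%, lowest ethanol-administered 20.9%). The share of Npy5r was 27.6% ± 1.90 (n = 7, SD) and 15.9% ± 3.11 (n = 5, SD). The summed level of the 3 neuropeptide Y receptors was 6.25 ± 0.515 (n = 7, SD) and 9.0 ± 1.04 CPM per kilobase (n = 5, SD). Sstr2 remained the largest of the 4 somatostatin receptors in both groups, at 53.0% ± 4.04 (n = 7, SD) and 47.7% ± 3.44 (n = 5, SD) with overlapping ranges, and Sstr4 the smallest, at 8.50% ± 1.92 (n = 7, SD) and 13.8% ± 1.37 (n = 5, SD). The summed somatostatin receptor level was 21.3 ± 0.950 (n = 7, SD) and 21.6 ± 2.98 CPM per kilobase (n = 5, SD), with overlapping groups. These shares are descriptions and were not tested.

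**Figure D2:**
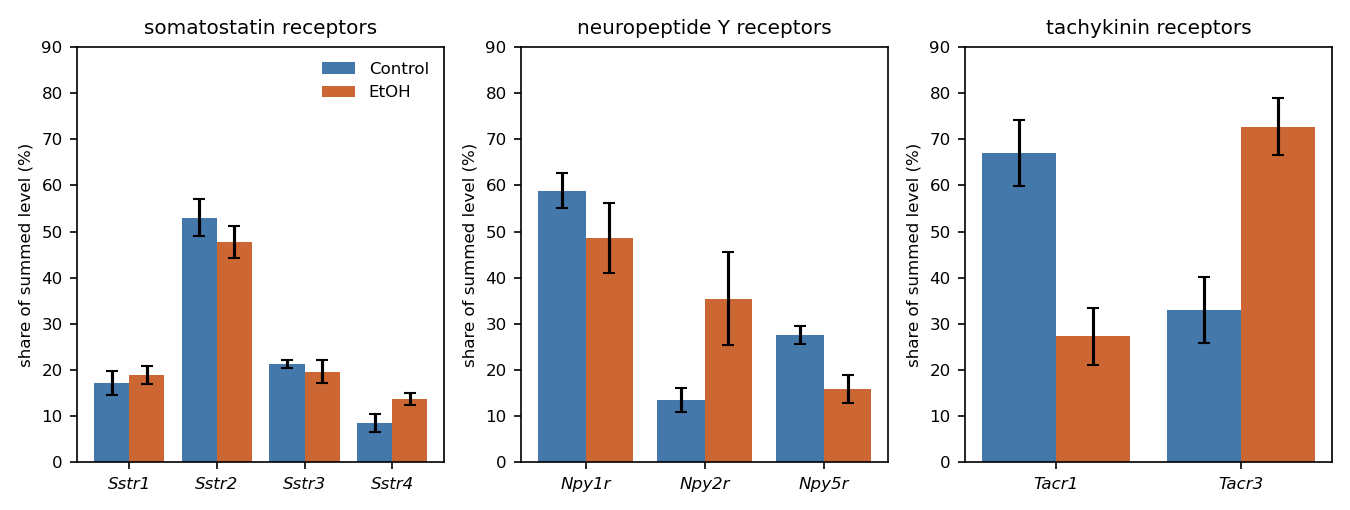
Bars show the mean share (in percent) of each receptor in the summed level per kilobase of its family, with SD, in Control (n = 7) and EtOH (n = 5) mice. In the tachykinin family Tacr1 goes from 67.0% to 27.3%, and in the neuropeptide Y family Npy2r goes from 13.5% to 35.5%, while Sstr2 leads the somatostatin family in both groups.

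The peptides that act on these receptors were looked up in the same fit. Of 9 ligand genes, 6 were tested, all 6 had a negative log2 fold change, 2 were called lower and 0 higher, where 4.09% of all genes were called lower and 8.29% in either direction. Tac1, the precursor of substance P and neurokinin A, ranged from 31.2 to 99.5 CPM in the control mice (mean 64.5 ± 21.5, SD, n = 7) and had 8.72, 8.12, 8.74, 10.4 and 7.63 CPM in the ethanol-administered mice. Both Tac1 and its receptor gene Tacr1 were thus lower in every ethanol-administered mouse than in any control mouse. The log2 fold change of Tac1 was -2.89 (SE 0.21, adjusted p = 5.98e-08 by edgeR). Tac1 is also a known transcript of striatal projection neurons, and the median log2 fold change of the 15 striatal markers was -2.98. The part of the striatal content in the difference of Tac1 was not tested. Npy ranged from 68.1 to 104 CPM in the control mice and had 37.9, 62.9, 49.6, 52.5 and 52.0 CPM in the ethanol-administered mice (log2 fold change -0.77, SE 0.11, edgeR adjusted p = 9.44e-05). With the long-gene share as a covariate Npy was no longer called (-0.48, edgeR adjusted p = 0.0719), whereas Tac1 still was (-2.53). The ligand gene Npy and the receptor gene Npy2r hence moved in opposite directions, and Npy had no overlap between groups. Among the interneuron markers Gad2 and Lamp5 were called lower and Reln higher. The part of the interneuron content in the difference of Npy was not tested.

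Cck, the cholecystokinin precursor gene, fell short of a call. Its difference was -0.39 on the log2 scale (SE 0.08, adjusted p = 0.00117 by edgeR), which passed the p threshold but not the minimum fold change. With the long-gene share as a covariate it no longer passed (-0.23, adjusted p = 0.267 by edgeR). All 5 ethanol-administered mice (245 to 283 CPM) were below the control mice (287 to 419 CPM). Sst, the ligand of the somatostatin receptors, had 182 ± 21.9 CPM (n = 5, SD) against 214 ± 31.2 CPM (n = 7, SD) and did not pass (log2 fold change -0.23, edgeR adjusted p = 0.0943). Cort, coding for the related peptide cortistatin, and Tac2, coding for neurokinin B, had log2 fold changes of -0.06 and -0.18 (edgeR adjusted p = 0.794 and 0.271). Pyy and Tac4 had no counts in any mouse, and Ppy had at most 4 counts. If single counts are independent, no counts allow at most 0.0944 CPM in the shallowest library by counting error alone.

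**Figure D3:**
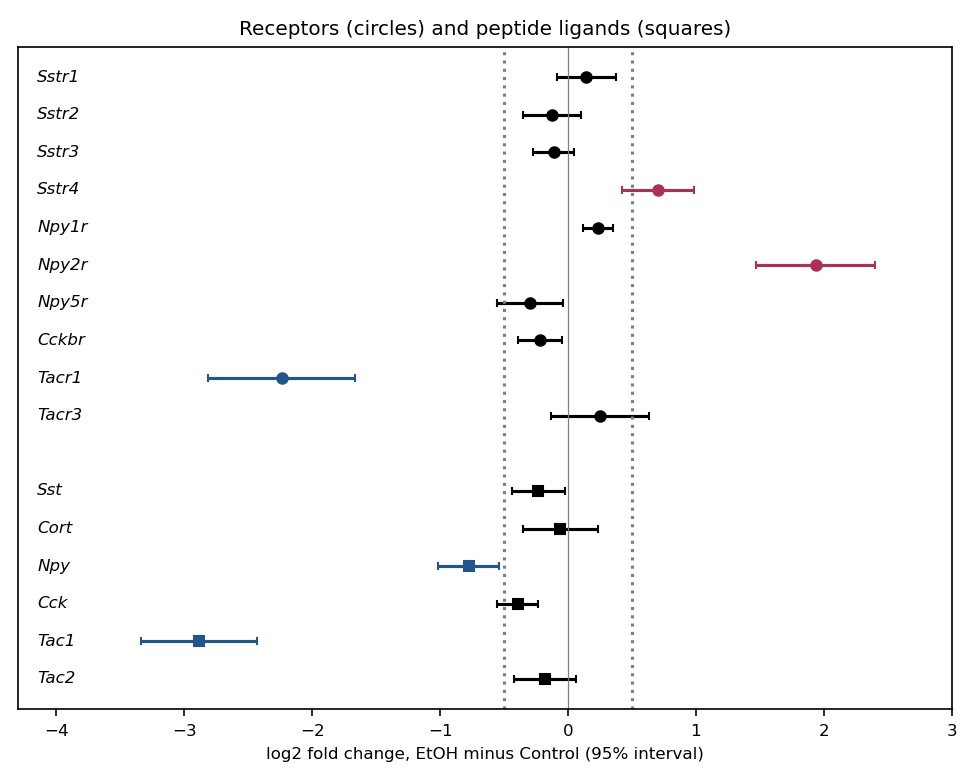
Points give the log2 fold change (EtOH minus Control) of the 10 receptors (circles) and the 6 ligand genes tested (squares), with 95% intervals. Coloured symbols were called and dotted lines mark 0.5 in either direction. Npy2r and Sstr4 lie to the right, and Tacr1, Tac1 and Npy to the left, with Tac1 farthest at -2.89.

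The receptors of the same 4 families outside the 10 had few counts. Sstr5 had 0.363 ± 0.145 CPM (n = 7, SD) in the control and 0.189 ± 0.170 CPM (n = 5, SD) in the ethanol-administered mice and was not called (log2 fold change -0.84, edgeR adjusted p = 0.245). Cckar had at most 10 counts, Tacr2 at most 22, Npy4r at most 4 and Npy6r at most 2 counts in any mouse, and none of these 4 was tested. All counts of these receptors, Sstr5 included, were even numbers, so single counts may not be independent.

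Genes for signalling downstream of the receptors and for peptide processing are read against the share of 8.29% called over all genes. Of 7 genes for the coupling G proteins and of 8 for inwardly rectifying potassium channels and phospholipase C beta, all were tested and 0 were called (edgeR). By the adjusted p alone, which 23.7% of all genes passed, Gnaq passed among the former (log2 fold change 0.20, adjusted p = 0.00286). Among the latter Kcnj9 passed with a higher level (0.26, adjusted p = 0.0247), and Plcb2 (-0.44, adjusted p = 0.0328) and Plcb4 (-0.39, adjusted p = 0.0122) with a lower one. Among 7 receptor kinase and arrestin genes, which switch off active receptors, Grk3 was called higher, with 165 ± 12.5 CPM (n = 5, SD) against 106 ± 13.1 CPM (n = 7, SD), a log2 difference of 0.64 (adjusted p = 1.64e-05 by edgeR), or 0.45 and so under the minimum with the long-gene share as a covariate. In the opposite direction, Grk5 (log2 fold change -0.46, edgeR adjusted p = 0.000173) and Arrb1 (-0.19, adjusted p = 0.00744) passed without the minimum fold change and were lower in every ethanol-administered mouse than in any control mouse. Of 8 genes for enzymes that process or cleave peptides, Mme was called lower, with 9.18 ± 0.986 CPM (n = 5, SD) against 17.1 ± 3.66 CPM (n = 7, SD) and a log2 difference of -0.90 (adjusted p = 0.000155 by edgeR). Mme codes for neprilysin, which degrades substance P among other peptides. Without the minimum fold change, Pcsk2 (log2 fold change -0.27, edgeR adjusted p = 0.00188), Cpe (0.15, adjusted p = 0.0266) and Ece2 (0.33, adjusted p = 0.0448) also passed in this list.

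Receptors for other neuropeptides were set beside the 10 for comparison. Of 29 listed, 23 were tested, of which 4 were called higher and 5 lower, where 4.2% of all genes were called higher and 4.09% lower, and the median log2 fold change of the list was 0.21. Among the 9 called, the 4 with the smallest p-values were Ntsr1, a neurotensin receptor (log2 fold change 0.99, edgeR adjusted p = 1.83e-05), Qrfpr, the receptor of the RF-amide peptide QRFP (1.42, adjusted p = 3.94e-05), Mchr1, a receptor of melanin-concentrating hormone (-0.64, adjusted p = 5.77e-05, a call lost with the long-gene covariate described further on), and Mc3r, a melanocortin receptor (-2.53, adjusted p = 0.0027). Mc3r had a mean of 0.082 CPM in the ethanol-administered mice, near the floor of 3 counts, so the size of its change is uncertain. Calls in both directions occurred in this list as they did among the 10.

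Tacr1 was compared with the striatal markers among the 7 control mice alone, which share their treatment. Its log2 CPM rose with the mean log2 CPM of the list (Pearson's r = 0.97, two-sided p = 0.000794 by exact permutation, or 0.0159 after Benjamini-Hochberg adjustment over 20 relations). Spearman's rho was 0.93 (exact permutation p = 0.00675, adjusted 0.0675). Control mouse 7, with the lowest Tacr1, also had the lowest striatal level (5.51, against 6.01 in the next), and without the mice farthest from the median, control mice 7 and 5, r was 0.81. Htr1d and Rem2 had the log2 CPM most like that of Tacr1 over the 12 mice (Pearson's r = 0.98 for both). These correlations rest on 12 libraries in which both genes differ by group. After subtracting the group means they were 0.90 and 0.88. The genes were picked by their correlation in these same mice, so these values are no separate support. What part the striatal and cholinergic content had in the difference of Tacr1 between the groups was not tested.

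For Npy2r, the relation with the hippocampal markers among the control mice did not pass (r = 0.47, exact permutation p = 0.287, rho = 0.61, exact permutation p = 0.167, adjusted over the 20 relations to 0.445 and 0.476). The hippocampal level of the control mice ran only from 0.70 to 1.18, so a relation at higher levels could not be seen. The ethanol-administered mouse with the lowest Npy2r, mouse 5, had a hippocampal level of 3.18, within the range of 2.73 to 3.85 of its group. The choroid plexus level (mean log2 CPM) of ethanol-administered mice 1 to 5 was 2.20, 0.54, 4.40, 3.11 and -0.05. Like Npy2r, it was lowest in mouse 5 and highest in mouse 3, and its relation with Npy2r was not tested. The genes most like Npy2r over the 12 mice were Raver2, Tgfb2 and Slc44a5, each with r = 0.97, and 0.85, 0.85 and 0.84 after subtracting the group means. They too were picked by r in these same mice. The part of the hippocampal content in the rise of Npy2r was not tested.

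Several receptors, Sstr4 most closely, moved with the share of counts that fell on long genes. Genes with merged exons longer than 12602 bases (above the 90th percentile) held 16.5% to 19.1% of counts in the control and 18.8% to 19.9% in the ethanol-administered mice, and of these 1563 genes 83 were called higher and 34 lower. The log2 CPM of Sstr4 correlated with this share with r = 0.90 over the 12 mice and 0.75 after subtracting group means, as a description. The same correlations were -0.79 and -0.38 for Tacr1, 0.76 and 0.28 for Npy2r, 0.69 and 0.093 for Npy1r, -0.57 and -0.52 for Sstr2, -0.57 and -0.42 for Sstr3 and 0.54 and 0.45 for Sstr1. Of the genes most like Sstr4, Kmt2a, Ubr4 and Sort1 (r = 0.98, 0.97 and 0.97), the first 2 have merged exons of 16697 and 18054 bases. Sort1, with 8208 bases, is not among the long genes. This share was taken as a covariate only after seeing the data. Of the control mice, mouse 5 alone (19.1%) reached the range of the ethanol-administered mice, and the next had 18.4%. A call lost with this covariate therefore cannot be told apart from lost power. With the covariate Sstr4 was no longer called, as given above, whereas the calls of Npy2r (1.71, edgeR adjusted p = 0.0076) and Tacr1 (-1.82, adjusted p = 0.00466) held.

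**Figure D4:**
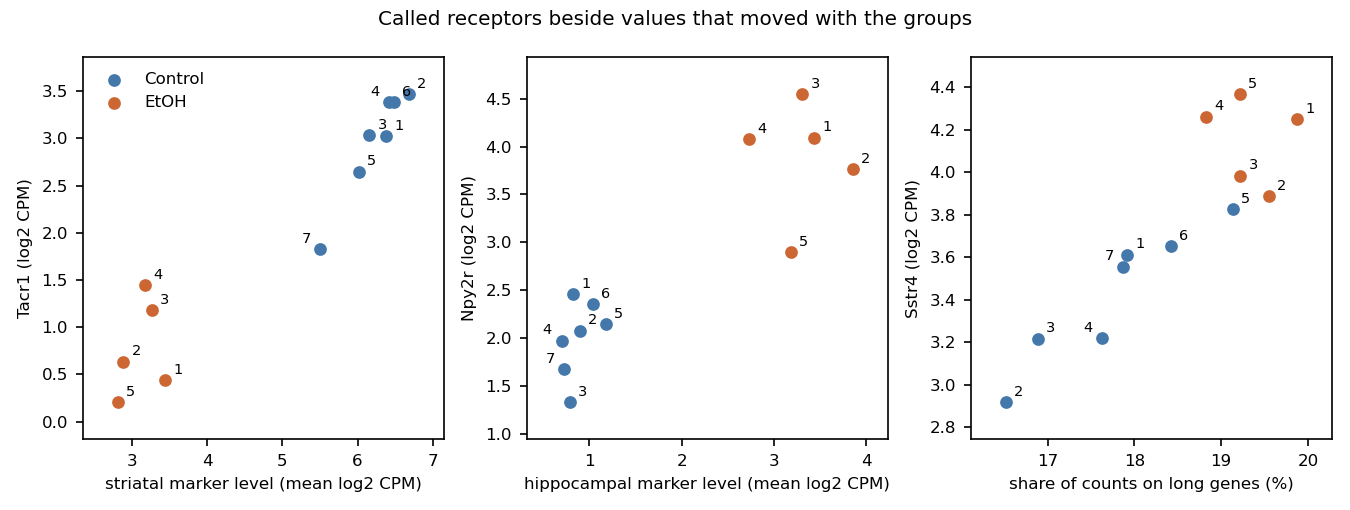
Each point is 1 mouse, numbered by replicate, with the log2 CPM of Tacr1, Npy2r or Sstr4 on the vertical axes. The horizontal axes give the striatal or hippocampal marker level (mean log2 CPM) or the percentage of counts on long genes. The groups stand apart on both axes for Tacr1 and Npy2r, and control mouse 7 is nearest to the EtOH mice for Tacr1. In the long-gene share the groups overlap only through control mouse 5.

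Sequencing depth was between 31768076 and 42183029 counts per mouse. Each group held 1 deeper library, control mouse 5 and ethanol-administered mouse 1, and all 3 receptor calls were the same without either of them.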

How the data were processed

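The authors had total RNA of frozen cortex extracted and sequenced at BGI. Reads were checked in FastQC 0.11.9, mapped with STAR against GRCm39 (Gencode Release 28), counted with featureCounts and tested in DESeq2. Versions of STAR and featureCounts and the strand setting are not given in the sources used here. The deposited table holds estimated counts per gene symbol, unnormalised, and 61 symbols, none of them a receptor examined here, hold values that are not whole. Every column was matched to 1 mouse by name.

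Counts were rounded, filtered with filterByExpr (16059 genes left), scaled with TMM and tested by group with the quasi-likelihood test of edgeR, adjusting p-values over all genes by Benjamini-Hochberg (R 4.3.3, edgeR 4.0.16). Log2 CPM used a prior count of 2. Merged exon lengths and positions came from Gencode vM39 (GRCm39). Relations among control mice used exact permutation over 5040 pairings. Intervals of fold changes are at 95%, and the floor of 3 counts covers counting error only and takes single counts as independent.

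The receptors and gene lists were chosen with earlier results of these data known. Named genes are the 10 receptors, their ligands and remaining family receptors, up to 4 called genes per other list, and the 3 genes most alike to each called receptor. Some genes that this rule selects are given only by their list. An item that it selects is not reported here. Downstream genes and cortical markers that passed without the fold change minimum were named after their values were seen.

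Alternatives were DESeq2 1.42.0, limma voom 3.58.1, other scaling factors, filters and fold change minimums, the replicate number as a block, each mouse left out and, added later, the long-gene share as a covariate. The fits were tested on simulated data. The labels and methods give no batch. All replicate libraries differed by more than counting noise (chi-square per degree of freedom at least 7.77), so each counted as 1 mouse.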

Additional observations from a re-analysis of the deposited data

Results flagged for a closer look

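Among 120 groups of values looked at (the named genes, library totals, marker levels and long-gene share, in each group), 6 had a single mouse far from the rest by Dixon's criterion, where chance gives about 6. None of the 10 receptors was among them. In log2 CPM these were Mchr1, highest in ethanol-administered mouse 3 (4.33, next 4.13), Chat, lowest in the same mouse (-4.08, next -1.85), Dsp, highest in control mouse 5 (0.051, next -1.66), and Raver2, lowest in control mouse 3 (4.16, next 4.47). The -4.08 of Chat is the value that 0 counts take with the prior count. Control mouse 3 also had the lowest Npy2r of the control mice, but Raver2 was picked for its likeness to Npy2r in these same mice. The remaining values were the total counts of control mouse 5 (40690223, next 32356913) and of ethanol-administered mouse 1 (42183029, next 33313165). No cause was tested for any of them.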

How the results depend on the processing

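The calls of Npy2r, Tacr1 and Sstr4 held under DESeq2, limma voom, 2 other scalings (relative log expression, upper quartile), both other filters, the replicate block and each of the 12 fits that left out 1 mouse. With no minimum fold change, 3 receptors were higher and 1 lower, and 1947 and 1863 of all genes. With a minimum of 1, Npy2r was the 1 receptor left as higher, and 242 genes were higher and 282 lower. With the long-gene share as a covariate, 1 receptor was higher (Npy2r) and 1 lower (Tacr1), with 254 genes higher and 368 lower. Of the named genes 12 lost their call under it, among them Sstr4, Npy, Grk3, Mchr1 and Kmt2a, while Tac1, Mme, Ntsr1, Qrfpr and Mc3r kept theirs. The other settings that kept the minimum of 0.5 took 24 calls from 6 genes, all of them markers of other cell types or interneurons (Lamp5, Mbp, Mobp, Ttr, Otx2 and Kcnj13). Under the long-gene covariate Sstr1 (-0.051), Sstr2 (0.12), Sstr3 (0.013), Sst (0.17), Cort (0.020) and Tac2 (0.018) changed the sign of their log2 fold changes, none of which was called. The cause was not tested. The number of genes called stayed within 1.5 times of 674 higher and 657 lower under the remaining alternatives (576 to 783 higher and 586 to 727 lower with 1 mouse left out). The relation among control mice passed for 2 of 20 pairs under the other scaling and the other prior count too. Replicate numbers are shared by different mice of the 2 groups. Same-numbered mice did not deviate together (correlations -0.11 to 0.018 over 5 pairs, 0 of 5 closest to their own number), and with the replicate number as a block 690 genes were higher and 634 lower. Tacr3 had 53 to 122 counts per mouse and Tacr1 36 to 360, so counting error adds more to these receptors than to Cckbr or Npy1r.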

Other observations

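Among the 20 relations of the 10 receptors with striatal and hippocampal marker levels over the 7 control mice, 1 passed besides that of Tacr1. Sstr2 fell as the hippocampal level rose (Pearson's r = -0.95, two-sided p = 0.00337 by exact permutation, 0.0337 after adjustment over the 20 relations, and Spearman's rho = -0.93, exact permutation p = 0.00675, adjusted 0.0675). Without control mice 5 and 6, the 2 farthest from the median, r was -0.61, so its size rests in part on them. Sstr2 was not called between the groups. The mean log2 CPM of the hippocampal markers was 0.70 to 1.18 in the control mice and 2.73 to 3.85 in the ethanol-administered mice. The control relation therefore covers none of the levels of the ethanol-administered mice. What part the hippocampal content had in the level of Sstr2 was not tested. By the rank correlation 0 of the 20 relations passed after adjustment, and 2 had an unadjusted p under 0.05.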
